A study of Mus musculus with 2 samples.

Results

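Of the 43346 annotated genes measured in the embryonic mouse hindbrain, 10 are described here: the POU domain transcription factor genes Pou2f1, Pou2f2, Pou3f1, Pou3f2, Pou3f3, Pou3f4, Pou4f1, Pou4f2, Pou4f3 and Pou6f1. They were chosen by name, by matching gene identifiers without their version to GENCODE mouse symbols, and all 10 were found in the files of both samples. Values of 4 other POU genes, Pou1f1, Pou2f3, Pou5f1 and Pou5f2, are given beside them, which makes 14 POU genes reported here. The samples were 2 hindbrains of strain B6NCrl at 14.5 days of gestation, the stage at which the neurons of the medulla and pons are settling and the cerebellum is still forming. Each library was prepared from 10 ng of total RNA longer than 200 nt and was labelled as the hindbrain of 1 pup, and the collection dates differ, which means that date and sample are confounded and cannot be told apart. In the labels both have a sex given as pooled and the same donor identifier, and no treatment, mutant or second tissue was analysed here. The libraries held 34929425 and 33510896 estimated reads, of which 33727977 and 32450699 were assigned to annotated genes. With 1 group, the only comparison between samples is of 1 replicate with the other, and it describes these libraries and no condition.

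A POU protein binds DNA through a POU-specific domain and a POU homeodomain joined by a flexible linker, and many members recognise octamer-like sites. Of the POU2 proteins, Oct1 is broadly expressed and also activates small nuclear RNA genes, and Oct2 is shared by neural tissue and B lymphocytes. The POU3 proteins (Oct6, Brn2, Brn1 and Brn4) act in neural progenitors and young neurons, often next to Sox proteins, and their genes have no introns. The POU4 proteins (Brn3a, Brn3b and Brn3c) mark postmitotic sensory and projection neurons, and in the hindbrain Pou4f1 is known from neurons of the inferior olive and of somatosensory relay nuclei. Pou6f1 encodes Brn5, a factor of maturing neurons.

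A 60-base stretch of the homeodomain coding sequence shows how the members differ in their bases. It holds part of the third helix, which lies in the major groove of DNA, and bases before that helix. The 60 bases of coding sequence of 9 members follow (GENCODE M21 transcripts, GRCm38, 5′ to 3′ on the coding strand; capitals mark bases that differ from Pou3f2; Pou4f3 is not shown).
Pou3f2, chr4:22486905-22486964, minus strand: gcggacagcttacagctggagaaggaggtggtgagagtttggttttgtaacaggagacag
Pou3f1, chr4:124658817-124658876, plus strand: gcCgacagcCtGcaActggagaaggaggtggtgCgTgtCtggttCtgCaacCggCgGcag
Pou3f3, chr1:42698454-42698513, plus strand: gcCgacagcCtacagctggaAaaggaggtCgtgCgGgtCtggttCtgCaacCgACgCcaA
Pou3f4, chrX:110815398-110815457, plus strand: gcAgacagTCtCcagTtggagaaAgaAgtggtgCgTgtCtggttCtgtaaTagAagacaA
Pou2f1, chr1:165894989-165895048, minus strand: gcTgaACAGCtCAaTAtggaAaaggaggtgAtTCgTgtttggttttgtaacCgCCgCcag
Pou2f2, chr7:25096971-25097030, minus strand: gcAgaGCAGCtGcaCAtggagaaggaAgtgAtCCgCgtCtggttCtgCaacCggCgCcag
Pou4f1, chr14:104465765-104465824, minus strand: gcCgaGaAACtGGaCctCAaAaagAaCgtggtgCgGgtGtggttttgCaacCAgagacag
Pou4f2, chr8:78434773-78434832, minus strand: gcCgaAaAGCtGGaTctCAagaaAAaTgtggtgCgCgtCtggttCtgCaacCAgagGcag
Pou6f1, chr15:100578318-100578377, minus strand: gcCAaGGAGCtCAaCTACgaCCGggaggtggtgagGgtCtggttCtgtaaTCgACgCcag

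Pou3f1 differed from Pou3f2 at 12 of these 60 bases and Pou3f3 and Pou3f4 at 14 each, whereas members of other classes differed at 19 to 24. Over the whole 180-base homeodomain, pairs of the same class shared 76.7% to 85.0% of bases (10 pairs) and pairs of different classes 51.7% to 65.6% (35 pairs). The longest run of identical bases in the transcripts of any pair of members was 71 bases, in the coding exon of Pou4f1 (chr14:104466054-104466124, minus strand) and Pou4f2 (chr8:78435062-78435132, minus strand). It is shown because it is the stretch where a short read could not be placed between these genes:
Pou4f1 and Pou4f2: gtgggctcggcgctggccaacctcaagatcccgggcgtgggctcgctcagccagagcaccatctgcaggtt
The next longest shared run was 43 bases, and no pair of the 45 shared 100 bases, the fragment length implied by the deposited effective lengths. The deposited posterior standard deviation of the read count, the authors' own measure of uncertain assignment, was 0 in both libraries for 7 of the 10 genes and at most 11.7 reads, for Pou6f1.

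Of the 10 genes, 9 reached 1 TPM (a transcript level scaled by length and by the total of the library) in both replicates. This limit was passed by 34.8% of all 43346 annotated genes and by 62.5% of the 21474 protein-coding genes. The exception was Pou4f3. In the order of mean level, Pou4f1 was highest, followed by Pou6f1, Pou2f2, Pou3f2, Pou2f1, Pou3f3, Pou3f1, Pou3f4, Pou4f2 and Pou4f3. Replicate ranges of neighbours in that order were separate for 7 of 9 pairs, and overlapped for Pou3f2 with Pou2f1 and for Pou3f3 with Pou3f1. The deposited credibility bounds, which add the uncertainty of assigning reads to transcripts, separated 5 of the 9 pairs, and left Pou6f1 with Pou2f2 and Pou3f4 with Pou4f2 overlapping too. Among the 15088 genes detected in both libraries, the mean of Pou4f1 stood at percentile 70.3 and that of Pou4f2 at percentile 22.5. In a bulk sample of this kind, few cells with much of an RNA and many cells with little cannot be told apart.

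**Figure D1:**
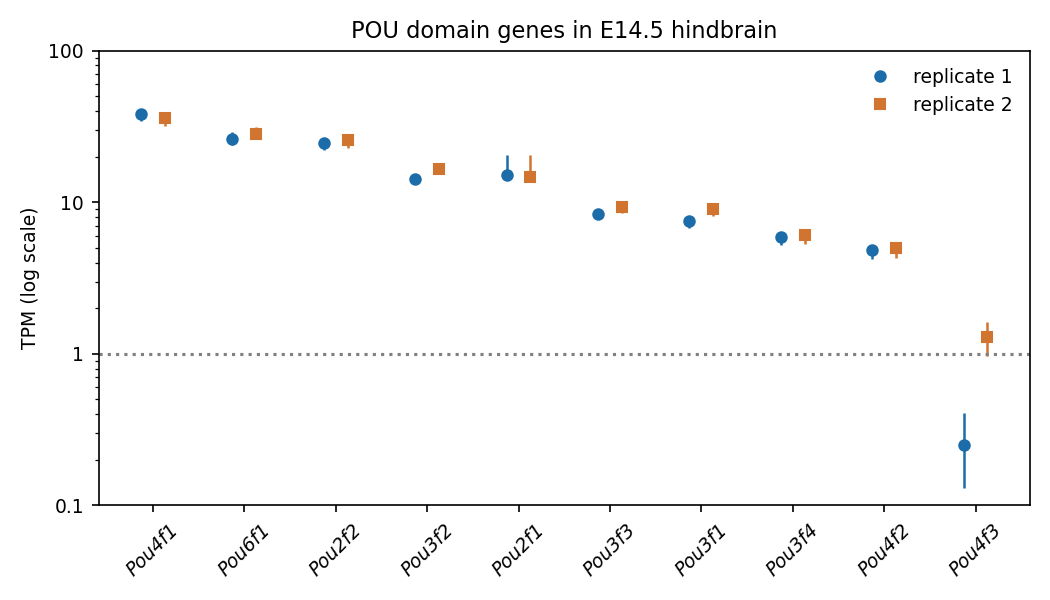
Level of each POU gene in TPM (log axis) in replicate 1 (circles) and replicate 2 (squares), ordered by mean; vertical lines are the deposited credibility bounds and the dotted line is 1 TPM. Pou4f3 is the only member whose replicates fall on opposite sides of the line, at 0.25 and 1.29 TPM.

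Both POU2 genes were well expressed. Pou2f2 measured 24.6 TPM in replicate 1 and 25.7 TPM in replicate 2, and Pou2f1 measured 15.2 and 14.7 TPM. Pou2f2, best known from B lymphocytes, was thus the higher of the pair in both libraries. The markers of B cells and other leukocytes were low in the same libraries: 0 of 4 reached 1 TPM in both, and their summed level was 1.93 and 1.73 TPM. Ptprc was the highest, at 1.10 and 0.75 TPM from 90 and 64 reads. Cd79b had 17 and 15 reads, Cd79a 3 and 7, and Ms4a1 0 and 1. Pou2af1, the B cell coactivator that binds POU2 proteins on octamer DNA, had 2 reads in replicate 1 and 0 in replicate 2, which allows up to 3 reads, or 0.0895 CPM (counts scaled to the library's total), there. The other partners on the list were all detected, which gives 7 of 8 when Pou2af1 is counted, against 62.5% of all protein-coding genes. These partners were Hcfc1 (44.6 TPM on average), the TATA-binding protein gene Tbp (44.0 TPM) and the snRNA activating complex genes Snapc1 to Snapc5, with Snapc2 highest at 51.1 and Snapc3 next at 50.9 TPM. Pou2f3, a factor of epidermal and taste cells, had 0 reads in either library.

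Pou2f1 has 18 annotated transcripts, of which 10 were above 0 TPM in at least 1 library, and Pou2f2 has 10, of which 8 were. Each set included a short model with an incomplete coding sequence. The 609-nt Pou2f2-207 held 35.1% and 33.3% of the TPM of Pou2f2 but 9.77% and 9.64% of its reads. The full-length Pou2f2-206 held 37.2% and 37.0% of TPM, Pou2f2-209 10.8% and 7.66%, the retained-intron model Pou2f2-208 8.75% and 12.9%, and Pou2f2-205 5.59% and 3.45%. In Pou2f1 the 592-nt Pou2f1-217 held 24.4% and 21.5% of TPM but 4.15% and 3.54% of reads. Complete coding models alone came to 13.8 TPM for Pou2f2 in replicate 1 and 13.9 in replicate 2, and to 9.28 and 9.74 TPM for Pou2f1. The leading Pou2f1 transcript, Pou2f1-209, was put at 45.5% and 42.4% by the deposited maximum estimate but at 19.8% and 20.0% by the posterior mean. Its TPM of 6.93 and 6.25 also lay above the deposited upper bounds of 5.79 and 5.83, so its share was not well determined. The same holds for the gene as a whole to a lesser degree: the posterior mean of Pou2f1 was 17.8 and 17.5 TPM, which would put it above Pou3f2. Pou2f1-205 held 5.38% and 9.20%, Pou2f1-206 5.81% and 11.9%, and the retained-intron model Pou2f1-211 7.87% and 6.73% of TPM.

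All 4 POU3 genes were detected, in the order Pou3f2, Pou3f3, Pou3f1, Pou3f4. Pou3f2 (Brn2) measured 14.1 and 16.6 TPM from 1659 and 1776 reads. Pou3f3 (Brn1) measured 8.39 and 9.25 TPM from 1311 and 1322 reads. Pou3f1 (Oct6), also known from myelinating Schwann cells, measured 7.58 and 9.02 TPM, and Pou3f4 (Brn4), known from the inner ear mesenchyme and the neural tube, 5.90 and 6.11 TPM. Pou3f2 was above the other 3 in both libraries without overlap. Each gene is a single exon with 1 annotated transcript, so these levels did not depend on how reads were divided among transcripts of the same gene. For Pou3f1, which Gm2164 overlaps, the deposited posterior standard deviation was 0.54 and 0.53 reads. The transcripts are long, 2928 to 7409 bases, and the class therefore held a larger part of the reads than of the TPM.

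Genes that act beside POU3 proteins were detected in 8 of 9 cases, against 62.5% of all protein-coding genes. The exception was Sox3, at 1.05 and 0.96 TPM. Fabp7, a radial glial fatty acid binding protein, averaged 1826 TPM, Sox11 283.7 TPM and Sox4 147.6 TPM, all far above the POU3 genes themselves, while Sox2 averaged 13.5 TPM. Next to Pou3f3 lies the noncoding RNA gene Pantr1, transcribed from the opposite strand 926 bp away. Pantr1 measured 110.9 and 110.0 TPM, from 1092 and 1012 reads, and so had a higher TPM than Pou3f3 from fewer reads. Pantr2, on the opposite strand 3885 bp from Pou3f3, measured 4.06 and 4.63 TPM. The overlapping AC122898.1, on the same strand, measured 2.23 and 1.72 TPM and shares 0 exonic bases with Pou3f3. Around Pou3f1, Utp11 measured 26.4 and 27.1 TPM and Fhl3 1.77 and 1.44 TPM. Fbxl4, 48689 bp from Pou3f2, measured 14.5 and 18.1 TPM.

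The POU4 genes spanned the widest range. Pou4f1 (Brn3a) measured 38.5 and 35.8 TPM from 1976 and 1624 reads. Pou4f2 (Brn3b), known from retinal ganglion cells and the midbrain, measured 4.85 and 4.98 TPM from 322 and 302 reads. Pou4f3 (Brn3c), the factor of inner ear hair cells and some sensory neurons, measured 0.25 and 1.29 TPM from 12 and 57 reads. Replicates did not overlap between any of these genes.

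More of the TPM of Pou4f1 was assigned to a short noncoding model than to the mRNA. Pou4f1-202, a 799-nt processed transcript with no coding sequence, was given 20.5 and 19.8 TPM, or 53.3% and 55.5% of the gene. The coding Pou4f1-201, of 4445 nt, was given 18.0 and 15.9 TPM. By reads the order was the opposite: Pou4f1-202 held 307 and 271 reads, or 15.5% and 16.7%, and Pou4f1-201 held 1669 and 1353. The shorter model consists of 2 exons. Its second exon, 572 bases long (chr14:104463973-104464544), lies within exon 3 of Pou4f1-201, which is wholly 3′ UTR, so the first exon is the only stretch of Pou4f1-202 that Pou4f1-201 lacks. That exon has 227 bases within the last intron of Pou4f1-201 (chr14:104465139-104465365, minus strand, GRCm38; capitals mark the 30 bases before the splice junction):
Pou4f1-202, exon 1: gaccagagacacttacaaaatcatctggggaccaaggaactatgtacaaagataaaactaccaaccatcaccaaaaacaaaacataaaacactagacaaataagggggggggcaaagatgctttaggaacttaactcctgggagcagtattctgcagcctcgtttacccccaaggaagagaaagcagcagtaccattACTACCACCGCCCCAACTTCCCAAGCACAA
The deposited bounds of the 2 models overlapped in replicate 1 (16.6 to 18.4 TPM for Pou4f1-201, 16.8 to 23.4 TPM for Pou4f1-202) and in replicate 2 (14.6 to 16.4 and 15.9 to 22.6 TPM).

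Genes that act with or under POU4 factors in sensory and relay neurons were detected in 9 of 10 cases, against 62.5% of all protein-coding genes. Prrxl1 (also called Drgx), a factor of nociceptive relay neurons, averaged 51.2 TPM, the neurotrophin receptor gene Ntrk2 47.3 TPM and the migratory neuron factor Barhl1 22.1 TPM. Isl1 (20.1 TPM) and Tlx3 (17.6 TPM) were also present. Gfi1, which acts after Pou4f3 in hair cells, had 2 and 3 reads. The nearest measured gene, Rnf219, lies 9537 bp from Pou4f1 on the same strand and measured 17.5 TPM in either library.

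Pou6f1 ranked next to Pou4f1 at gene level, with 26.1 and 28.2 TPM from 1670 and 1660 reads. Only 35.5% and 34.5% of that TPM belonged to protein-coding models, or 9.26 and 9.73 TPM. The 764-nt processed transcript Pou6f1-207 held 34.4% and 34.9% of TPM but 7.64% and 7.72% of reads. The retained-intron model Pou6f1-208 held 25.4% and 29.0% of TPM and 30.2% and 34.3% of reads. The coding Pou6f1-202 held 19.0% and 20.3% and the coding Pou6f1-204 16.4% and 13.5% of TPM. The 4 neuronal genes listed with the class were all detected, against 62.5% of all protein-coding genes. The synaptic genes Snap25 and Syn1 averaged 213.9 and 91.7 TPM, and Rorb 11.4 TPM. In the 50000 bp around Pou6f1, Dazap2 measured 120.9 and 125.8 TPM, Tfcp2 16.0 TPM on average and Smagp 3.98 and 2.41 TPM.

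Counting only models annotated as protein coding changed the place of 5 of the 10 genes. Pou2f2 then led with 22.4 ± 0.0212 TPM (SD, n = 2), followed by Pou4f1 with 17.0 ± 1.44, Pou3f2 with 15.4 ± 1.71, Pou2f1 with 13.2 ± 0.361 and Pou6f1 with 9.50 ± 0.332 TPM, and the remaining 5 kept their order. Pou4f1 and Pou3f2 overlapped between replicates in this order, as did Pou3f3 and Pou3f1. With incomplete coding models left out as well, the mean of Pou2f2 was 13.8 TPM, below both Pou4f1 and Pou3f2, and Pou4f1 led. With all models shorter than 1000 bases left out instead, 4 genes changed place and Pou6f1 led on the mean only, at 16.6 and 18.4 TPM against 18.0 and 15.9 TPM for Pou4f1. The retained-intron, processed and incomplete models thus decide which POU gene is called the highest, while the places of Pou3f3, Pou3f1, Pou3f4, Pou4f2 and Pou4f3 were the same in all of these orders.

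**Figure D2:**
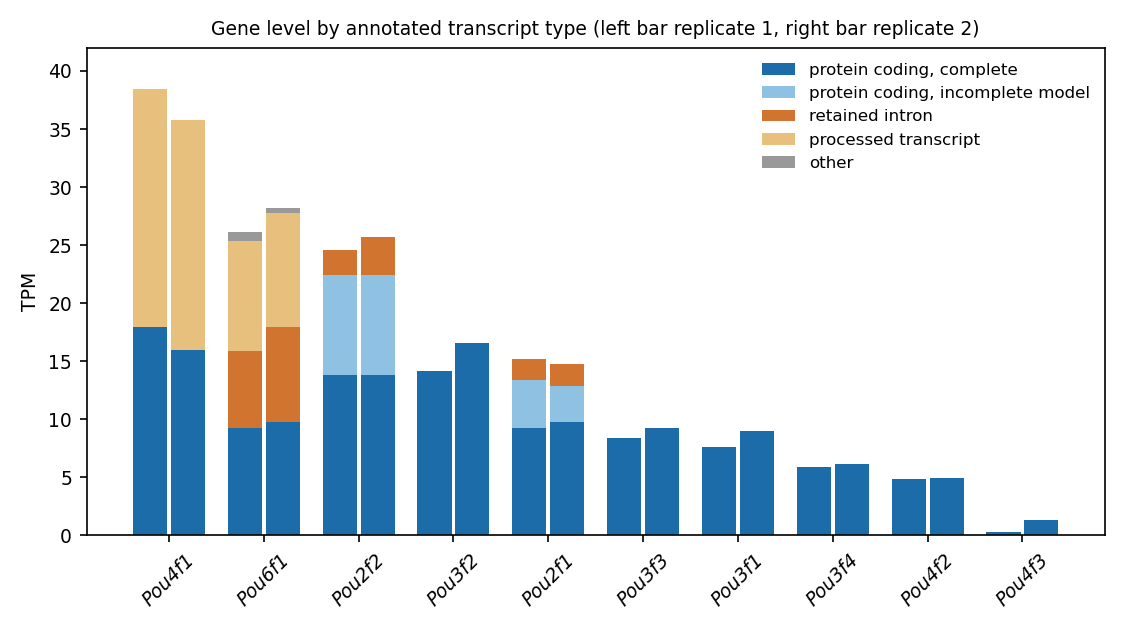
TPM of each POU gene divided by the annotated type of its transcripts, replicate 1 at the left and replicate 2 at the right of each pair of bars. The complete coding part of Pou4f1 is 18.0 and 15.9 TPM, and that of Pou6f1 is 9.26 and 9.73 TPM, below Pou3f2.

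By class, the 14 genes reported here summed to 146.2 and 152.2 TPM, of which the 10 genes held 99.5% and 99.6%. The POU4 class held 28.7% ± 1.54 (SD, n = 2), POU2 26.9% ± 0.447, POU3 25.8% ± 1.61 and Pou6f1 18.2% ± 0.495. POU1 and POU5 together were marginal: Pou1f1, the pituitary factor, had 2 and 1 reads, the pluripotency factor Pou5f1 had 1 read in either library, and Pou5f2 had 18 and 12. The order of classes was not fixed. In replicate 2 POU3, at 26.9%, was above POU2, at 26.6%, and by posterior mean TPM POU2, at 28.3%, was above POU4, at 27.7%. By reads, without dividing by length, POU3 held 41.6% and POU4 22.2%, and by protein-coding models only POU3 held 36.0%, POU2 33.3%, POU4 21.2% and Pou6f1 8.89%.

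Whether the replicates differed by more than counting noise was asked with an exact two-sided binomial test on the rounded reads of each gene, scaled by each library's total over genes and adjusted by the Benjamini-Hochberg method over 17664 genes. At an adjusted p of 0.05, 3 of the 10 POU genes differed, 2 of them higher and 1 lower in replicate 2. Of all genes tested, 34.4% differed, 15.7% higher and 18.7% lower, so the share among the POU genes was close to that of genes at large. The median log2 ratio of TPM was 0.09 for the 10 genes and 0.04 for all genes tested. The 3 genes were Pou4f3, Pou4f1 and Pou3f2.

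Pou4f3 differed most, with 12 reads in replicate 1 and 57 in replicate 2. After scaling it was 4.94-fold higher in replicate 2 (95% interval 2.62 to 10.1 from the exact binomial method, which covers counting error only; adjusted p = 1.4e-07, binomial test). Only 72 of 17664 genes, 0.408%, showed a larger ratio in either direction. Pou4f1 was 1.17-fold lower in replicate 2 (95% interval 1.10 to 1.25; adjusted p = 2.43e-05, binomial test). Pou3f2 was 1.11-fold higher (95% interval 1.04 to 1.19; adjusted p = 0.00764, binomial test). Among the others, the scaled fold of replicate 2 over replicate 1 ran from 0.946 for Pou2f1 to 1.13 for Pou3f1, and none passed (adjusted p from 0.0793 to 0.915, binomial test). With a minimum of 1.5-fold added, Pou4f3 alone remained, against 5.95% of all genes tested. Without a filter on low counts the same count of 3 POU genes differed, against 23.2% of 25039 genes, and among genes with a mean of at least 100 reads, which leaves out Pou4f3, 2 differed, against 41.5% of 13223.

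The calls for the smaller differences moved with the scaling. With edgeR's TMM factors or DESeq2 size factors Pou3f1 joined the 3 genes, for 4 of 10 against 34.9% and 35.1% of all genes. With the spike-in totals 5 of 10 differed, all higher in replicate 2 (Pou3f1, Pou3f2, Pou3f3, Pou4f3 and Pou6f1), against 43.7% of all genes, 35.2% higher and 8.46% lower. Pou4f1 was then 0.10 lower on the log2 scale and no longer called (adjusted p = 0.0727, binomial test, against 0.000187 to 0.000224 with TMM and DESeq2 factors). Spike-in scaling moved the median of detected genes to a log2 ratio of 0.11, against -0.02 with gene totals. Relative to that median Pou3f1, at 0.30, and Pou3f2, at 0.28, were still above and Pou4f1 below.

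**Figure D3:**
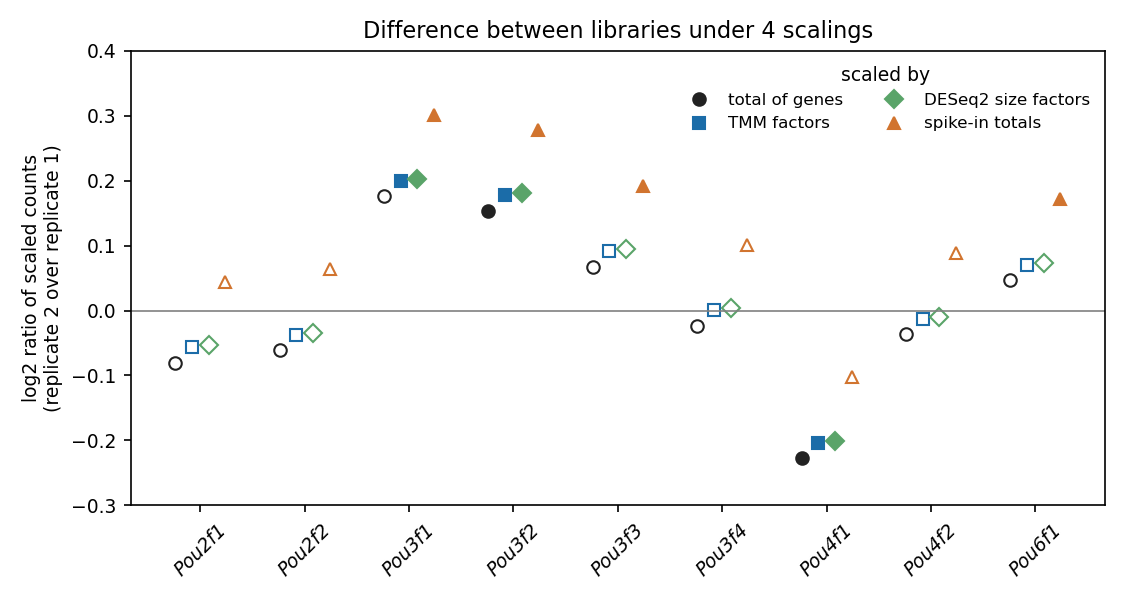
Log2 ratio of scaled reads, replicate 2 over replicate 1, for 9 POU genes under 4 scalings; filled symbols passed an adjusted p of 0.05 in the binomial test. Pou4f3 is left out of the axis range, at 2.26 with gene totals. Spike-in scaling (triangles) lifts all 9 genes, and Pou4f1 lies below 0 in each scaling.

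Markers of neighbouring tissues were read beside Pou4f3. Of 6 markers of cranial sensory ganglia, the clusters of sensory neurons beside the hindbrain, 2 were higher in replicate 2 and 0 lower, against 15.7% and 18.7% of all genes tested. The summed level of the 6 was 12.8 and 14.8 TPM. The actin-binding Avil had 29.3 reads in replicate 1 and 99.4 in replicate 2, and the sodium channel gene Scn10a 0 and 30. These calls held with all 4 scalings, and spike-in totals added P2rx3 (79 and 106 reads). Scn9a, Runx1, P2rx3 and Trpv1 did not pass with gene totals, with Scn9a at 1318 and 1175 reads and Trpv1 at 6 and 15. Hair cell markers gave another pattern: of 5 on the list, Myo7a was lower in replicate 2 (19.2 and 16.0 TPM), and Otof and Lhx3 did not pass. With spike-in totals Otof was called higher, which gives 1 higher and 1 lower. Espn had 11 and 6 reads and Gfi1 2 and 3. Schwann cell markers were called in 0 of 3 cases in each of the 4 scalings, with a summed level of 3.03 and 2.89 TPM. Away from the ganglia, the midbrain and hindbrain boundary gene En2 had 4 and 53 reads and the forebrain and eye gene Six3 1 and 19. Both were called higher in replicate 2, and En2 is also on the list of hindbrain markers. The part of ganglion cells, or of cells from neighbouring brain regions, in the Pou4f3 reads was not tested.

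**Figure D4:**
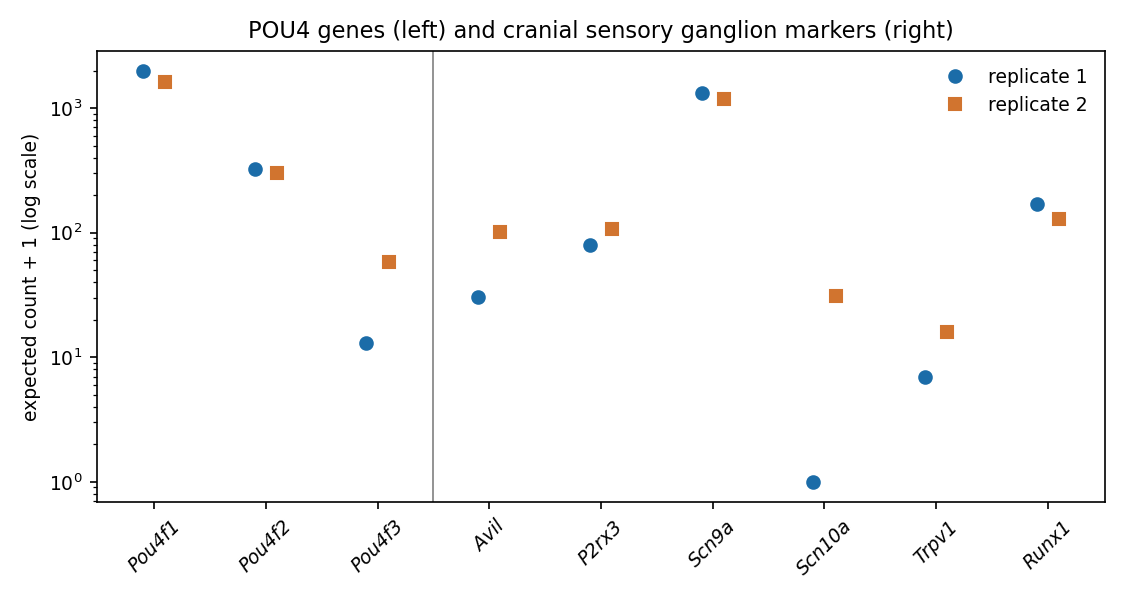
Estimated reads plus 1 (log axis) in replicate 1 (circles) and replicate 2 (squares) for the POU4 genes, left of the line, and for 6 cranial sensory ganglion markers, right of it. Reads are not scaled to library size. With gene totals, Pou4f3, Avil and Scn10a were called higher in replicate 2 and Pou4f1 lower. Pou4f2, Scn9a and Runx1 have fewer reads there and P2rx3 and Trpv1 more, but none of these was called.

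Beside Pou4f1, which was lower in replicate 2, 3 of 5 genes listed as inferior olive markers were higher there and 0 lower. Of all genes tested, 15.7% were higher and 18.7% lower with gene totals. The 3 were Foxp2 (17.8 and 27.4 TPM), Etv1 (15.9 and 21.5 TPM) and Calb1 (11.3 and 19.2 TPM), with the same count in all 4 scalings. Etv4 and Crh did not pass, and whether the 5 genes stand for the olive alone was not tested. Of the 9 tested genes on the POU4 partner list, 2 were higher (Ntrk2 and Barhl1) and 2 lower (Lbx1 and Prrxl1). Lbx1, which specifies dorsal hindbrain and spinal interneurons, had 822 and 696 reads, and Prrxl1 2536 and 2148. With TMM or DESeq2 factors 1 of the list was lower and with spike-in totals 0, while the number of higher calls was 2 in each. Of the 7 hindbrain markers, 3 were lower with gene totals and 1 was higher. The lower ones were the Hox genes Hoxa2 (28.3 and 22.7 TPM), Hoxb3 and Hoxa5, and the higher one was En2. Hoxa2, Hoxb3 and En2 passed in all 4 scalings, whereas Hoxa5 passed with gene totals only. Gbx2, Atoh1 and Ptf1a passed in none of them. Among neuronal markers 1 of 6, Rbfox3, was lower (53.9 and 51.5 TPM), and 0 were higher. With TMM or DESeq2 factors Tubb3 was called higher, for 1 higher and 1 lower, and with spike-in totals 5 of 6 were higher and 0 lower, against 35.2% and 8.46% of all genes. Whether cell makeup differed between the libraries, and its part in the level of Pou4f1, was not tested.

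Beside Pou3f2, the neuronal differentiation gene Insm1 (2.04 and 3.33 TPM) and the SoxC gene Sox4 (137.9 and 157.2 TPM) were higher in replicate 2, while Sox11 (296.4 and 271.0 TPM) and Fabp7 (1847 and 1806 TPM) were lower, Fabp7 not with spike-in totals. That is 2 of 9 tested genes on the POU3 list in either direction, and with spike-in totals, where 35.2% of all genes were called higher, Sox1, Nes and Dll1 passed too, for 5 higher and 1 lower. Progenitor markers were higher in 2 of 6 cases, Hes5 (55.1 and 82.1 TPM) and Mki67 (5.68 and 7.62 TPM), and lower in 1, Vim, which was lower with gene totals only and was higher with spike-in totals (5 of 6 higher). With gene totals 15.7% of all genes tested were higher and 18.7% lower. Of 5 oligodendrocyte precursor markers 4 were higher: Olig1 (73.8 and 95.8 TPM), Pdgfra (17.5 and 20.1 TPM), Olig2 (8.96 and 11.8 TPM) and Cspg4 (3.03 and 4.03 TPM). The part of these cells in the higher Pou3f2 was not tested. On the other lists, Snapc3 was lower with gene totals or TMM factors only, and Syn1 (76.8 and 106.5 TPM) and Rorb (10.8 and 12.1 TPM) were higher in replicate 2. With spike-in totals 2 of 7 tested POU2 partners, Hcfc1 and Snapc2, were called higher and 0 lower. Snap25 was called higher with spike-in totals as well.

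Around Pou2f2, the noncoding D930028M14Rik lies inside the gene on the opposite strand and measured 34.6 and 28.6 TPM, lower in replicate 2 (adjusted p = 0.00034, binomial test), while Pou2f2 itself did not pass. Its 1071 exonic bases share 0 with those of Pou2f2. Gsk3a (18.8 TPM on average) and Zfp574 (16.8 TPM) are the next highest genes within 50000 bp. Near Pou3f2, Fbxl4 was higher in replicate 2 (adjusted p = 0.0296, binomial test). Near Pou6f1, Tfcp2 (adjusted p = 0.00026, binomial test) and Smagp (adjusted p = 0.0338, binomial test) were lower. The other named neighbours that were tested did not pass. Of all genes tested, 15.7% were higher and 18.7% lower. Of the other overlapping genes, Cd247 shares 3007 exonic bases with Pou2f1 on the opposite strand and had 11.6 and 15.3 reads, and Gm2164 shares 330 with Pou3f1 and had at most 1.14 reads. Whether counting used the strand is not given in the sources used here, and without it reads of overlapping genes on opposite strands cannot be told apart.

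The tissue label was checked against region markers. Of 7 hindbrain markers 5 reached 1 TPM in both libraries, against 62.5% of all protein-coding genes. The 5 were led by Hoxa5 (141.6 TPM), Gbx2 (33.4 TPM) and Hoxa2 (25.5 TPM), while En2 and Ptf1a stayed below. Of 6 forebrain and retina markers 1 did, Atoh7 (5.86 and 4.81 TPM), and Emx1 was at 0 reads and Nkx2-1 at 1 and 0. Emx2 had 0 reads in replicate 1 and 7 in replicate 2, Rax had 0 and 6, and Six3 was given above. All 6 neuronal markers were detected, with Tubb3 at 1390 TPM, Stmn2 at 1002 TPM and Elavl4 at 284.2 TPM. Pituitary markers were near 0, with Gh at 0 reads in both libraries and Pomc, which hypothalamic and other neurons also express, at 2.79 TPM.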

How the data were processed

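Total RNA-seq libraries of 2 hindbrains, replicates of 1 group by the labels' replicate numbers, were analysed. Per the file headers and accompanying descriptions, the authors quantified each replicate on its own against mm10 with annotation M4. For the aligner, the quantifier and the use of strand, a statement is not given in the sources used here. As deposited, expected counts are estimated read numbers without normalisation by the authors. For TPM and FPKM, the authors divided by length and depth before they deposited them, over all features and 96 spike-in sequences. The deposited transcript percent is the share of a gene's TPM. Credibility bounds of TPM and posterior deviations of counts, deposited by the authors, were used as score values; the level of the bounds is not stated.

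Symbols matched 42462 of 43346 genes. Names, transcript types, sequences and coordinates came from GENCODE M21 (GRCm38, the assembly of mm10), whose models can differ from M4. Homeodomain identity was taken from coding bases in place of proteins. Detection meant 1 TPM in both replicates, and log2 ratios of TPM used a pseudocount of 1. The exact binomial test, tested on simulated data with counting noise and known folds only, took expected counts, rounded, for genes averaging 10 or more. It compares 2 libraries, which differed by more than counting noise over all genes (chi-square of 12.7 per gene). The source of their difference, technical or biological, was not tested, and the labels share a donor identifier while the collection dates differ. No molecular identifiers were counted, so reads are not independent molecules, and intervals and limits for a count of 0 (3 reads) cover counting error only.

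The genes and lists were chosen with earlier results of these data known. Results for some genes of the lists are not reported here, and list counts and class shares leave them out. Text names mostly follow a rule: the POU genes, the 3 highest members of each other list and any that differed, neighbours within 50000 bp with at least 1 TPM (up to 3 for each gene) and transcripts with at least 5% of a gene. Against this rule, values of the progenitor marker Pax6, the Schwann cell markers and the pituitary markers Tshb and Prl were left out. List members at or near 0, markers that did not pass and overlapping genes were named in addition. Alternatives were other units, estimates, detection limits, filters, scalings (edgeR 4.0.16, DESeq2 1.42.0, spike-ins) and each replicate alone; orders and class shares from coding, complete coding or longer models, and the DESeq2-scaled ratio, were chosen after seeing the data. Software was Python 3.11.15 with scipy 1.17.1, numpy 2.4.6, matplotlib 3.10.9 and pandas 2.3.3, and R 4.3.3.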

Additional observations from a re-analysis of the deposited data

How the results depend on the processing

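No paired analysis was possible because there is 1 group. Under the alternatives, 85 values of counts, orders and shares stayed within the spread between replicates or within 1.5 times of the reported count, and 28 moved. The 85 include class and transcript shares with 1 replicate left out. Such a share is the value of the other replicate and lies within that spread by construction. The 3 POU genes that differed between libraries became 5 with spike-in totals and 1 with a minimum of 1.5-fold. Posterior mean TPM changed the place of 2 genes in the order of levels, coding models of 5, complete coding models of 3 and models of at least 1000 bases of 4; leaving out 1 replicate changed 0 to 2 places, the 2 being Pou3f2 and Pou2f1 without replicate 2. Among class shares, expected counts gave POU2 18.9%, POU3 41.6%, POU4 22.2% and Pou6f1 17.2%, coding models gave 33.3%, 36.0%, 21.2% and 8.89%, and posterior means gave POU2 28.3%, so that POU3 led by counts and by coding models and POU2 by posterior means. The share of the leading transcript became 19.9% for Pou2f1-209, 33.7% for Pou2f2-206 and 31.5% for Pou6f1-207 by posterior means, and 37.2%, 37.9% and 7.68% by reads; Pou4f1-202 fell to 16.1% by reads. Detected Schwann cell markers, 1 of 3, became 2 at 0.5 TPM and by posterior means and 0 at 2 TPM, and leukocyte markers became 2 at 0.5 TPM and 1 by posterior means. Of the log2 ratios of single genes, 46 kept side and direction, 5 passed the test in addition and 1 no longer passed. For the other pseudocount, FPKM and posterior means the adjusted p was that of the main test, so the call could not change there. Only TMM, DESeq2 and spike-in scaling could change a call, and the count of 46 does not measure how stable the calls are. Ratios close to 0, none of them called, changed sign: Pou2f1 was 0.0445 with spike-ins; Pou2f2 was -0.0027 by FPKM, -0.0376 with TMM and -0.035 with DESeq2 factors; Pou3f4 was -0.0126 by FPKM; Pou4f2 was -0.0257 by FPKM, -0.0128 with TMM and -0.0102 with DESeq2 factors. With counts scaled by gene totals the ratio was already -0.06 for Pou2f2 and -0.04 for Pou4f2. With counts scaled by spike-in totals it was 0.0633 for Pou2f2 and 0.0881 for Pou4f2. The sign of these ratios thus depended on the unit and on the scaling. With 2 libraries of 1 group, no spread within a condition beyond a pair of values was available, and at 12 reads the level of Pou4f3 in replicate 1 is limited by depth.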
